A study of Homo sapiens with 4 samples.

Results

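Solute carrier transporters (SLC genes) were compared between HCT116-WT and HCT116-MT, human colorectal carcinoma lines that differ in the β-catenin allele they carry. The members were all genes whose symbol is SLC followed by a digit, and 383 such genes had 564 probes on the array. A probe was kept when its detection p-value, which compares it with the negative controls of its own array, was under 0.05 on at least 2 of the 4 arrays, and each gene was represented by its brightest kept probe. This left 223 SLC genes among 11875 genes of any kind with a kept probe. Of these 223 genes, 195 were detected on all 4 arrays, 11 on 3 arrays and 17 on 2 arrays, and the remaining 160 SLC genes had no kept probe and were given no value.

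Both lines were derived from HCT116 cells, which carry 1 wild-type and 1 mutant β-catenin allele. HCT116-WT retains the wild-type allele and HCT116-MT the mutant allele, the other allele having been disrupted in each case, so that each genotype is represented by a single engineered line. Neither line was treated, and 2 arrays were hybridised per line, whose intensities are given below with replicate 1 before replicate 2. Nothing in the labels says that replicates came from separate cultures, so the spread behind each p-value is that of these arrays alone and may be technical. Between 41.4% and 42.5% of probes were detected per array. CTNNB1, the β-catenin gene, read 2555 and 1761 in HCT116-WT against 2893 and 2001 in HCT116-MT (intensity), and its log2 fold change was 0.29 (SE 0.22, limma adjusted p = 0.757). The probe does not separate the alleles and so checks no label. Of 8 colorectal epithelial markers 3 had a kept probe (EPCAM, KRT8 and CDX2), whereas KRT18, KRT20, CDH17, VIL1 and LGALS4 had none. Of 6 markers of other cells PTPRC, CD3E, PECAM1 and COL1A2 had none, and CD68 and COL1A1 were kept. CD68 read 2751 and 3135 in HCT116-WT against 790.1 and 984 in HCT116-MT, and its part in the values of the carriers was not tested.

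Solute carriers are membrane proteins that move a substrate across a membrane by facilitated diffusion or by coupling it to the gradient of an ion or of a second solute. They import nutrients at the plasma membrane, exchange metabolites across the inner mitochondrial membrane, and supply the Golgi with sugar nucleotides for glycosylation. In the colon they serve absorption of ions, metals and nutrients, and proliferating tumour cells depend on them for glucose, amino acids and nucleosides.

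HCT116-MT cells showed higher levels of 4 SLC genes and lower levels of 11 at the thresholds of the study. These are a p-value below 0.05 before adjustment together with a change of more than 1.5-fold. The p-value is limma's here, whereas the authors used an integrated statistical method, so the genes they called may differ. The higher genes were SLC7A2, SLC9D1, SLC39A8 and SLC39A4, and the lower genes were SLC20A1, SLC50A1, SLC12A5, SLC30A1, SLC16A5, SLC67A1, SLC29A2, SLC35A2, SLC25A23, SLC11A2 and SLC8A2. They included carriers of phosphate, zinc, iron, nucleosides and nucleotide sugars. The 15 genes were 6.73% of the measured SLC genes, beside 7.31% of all genes tested (868 of 11875). By direction 1.79% of SLC genes were higher and 4.93% were lower, beside 3.46% and 3.85% of all genes. The split into 4 and 11 became 2 and 12 with median scaling and 1 and 12 without normalisation. These were 6.28% and 5.83% of SLC genes, beside 6.64% and 6.19% of all genes. The share of SLC genes past the thresholds was thus near that of all genes. With the Benjamini-Hochberg adjustment over all 11875 genes in limma, 0 SLC genes had an adjusted p under 0.05, while 0.0674% of all genes (8) did, and 18 SLC genes had an unadjusted p under 0.05, 8.07% of them beside 9.28% of all genes. The smallest adjusted p of an SLC gene was 0.328 for SLC7A2, and those of the 15 genes ranged from 0.328 to 0.494. Below, "rose" and "fell" refer to the study thresholds only.

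The whole family was centred close to 0. The median log2 fold change of SLC genes, HCT116-MT minus HCT116-WT, was -0.03, and its 10th and 90th percentiles were -0.50 and 0.35, beside -0.45 and 0.41 for all genes. The mean was lower in HCT116-MT for 121 SLC genes (54.3%, beside 50.04% of all genes) and higher for 102. The arrays of the lines did not overlap on the normalised scale for 80 SLC genes (35.9%, beside 39.9% of all genes), 39 with HCT116-MT higher and 41 with HCT116-MT lower. All 15 genes past the study thresholds were among the 80, so non-overlap, where given below, is no separate support for a call. A fold change over 2 was reached by 3 SLC genes, SLC20A1, SLC7A2 and SLC2A1. The median SD of an SLC gene between replicates was 0.24 in HCT116-WT and 0.16 in HCT116-MT on the log2 scale.

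Most calls were lost in at least 1 fit with an array left out. In such a fit the lone array of a line is assumed to vary like the others, and the test rests on fewer arrays. A call could thus end without a smaller fold change. Examples are SLC39A8 without HCT116-MT replicate 1 (0.68, against 0.67 with all arrays) and SLC11A2 without HCT116-MT replicate 2 (-0.74, against -0.63). Without HCT116-WT replicate 1, SLC29A2 (-0.68), SLC30A1 (-0.71), SLC8A2 (-0.50) and SLC39A4 (0.56) were no longer past the thresholds. Without HCT116-WT replicate 2 this held for SLC11A2 (-0.51), SLC12A5 (-0.44), SLC25A23 (-0.48), SLC67A1 (-0.62) and SLC9D1 (0.63). The loss of HCT116-MT replicate 1 ended the calls of SLC11A2 (-0.51), SLC12A5 (-0.86), SLC16A5 (-0.75), SLC20A1 (-0.86), SLC29A2 (-0.43), SLC30A1 (-0.53), SLC39A4 (0.67), SLC39A8 (0.68) and SLC9D1 (0.53). Omitting HCT116-MT replicate 2 ended those of SLC11A2 (-0.74), SLC12A5 (-0.92), SLC25A23 (-0.46), SLC35A2 (-0.67), SLC39A4 (0.62), SLC39A8 (0.67), SLC67A1 (-0.46) and SLC8A2 (-0.43). These values are log2 fold changes, and each of the 15 genes kept its direction in every such fit.

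**Figure D1:**
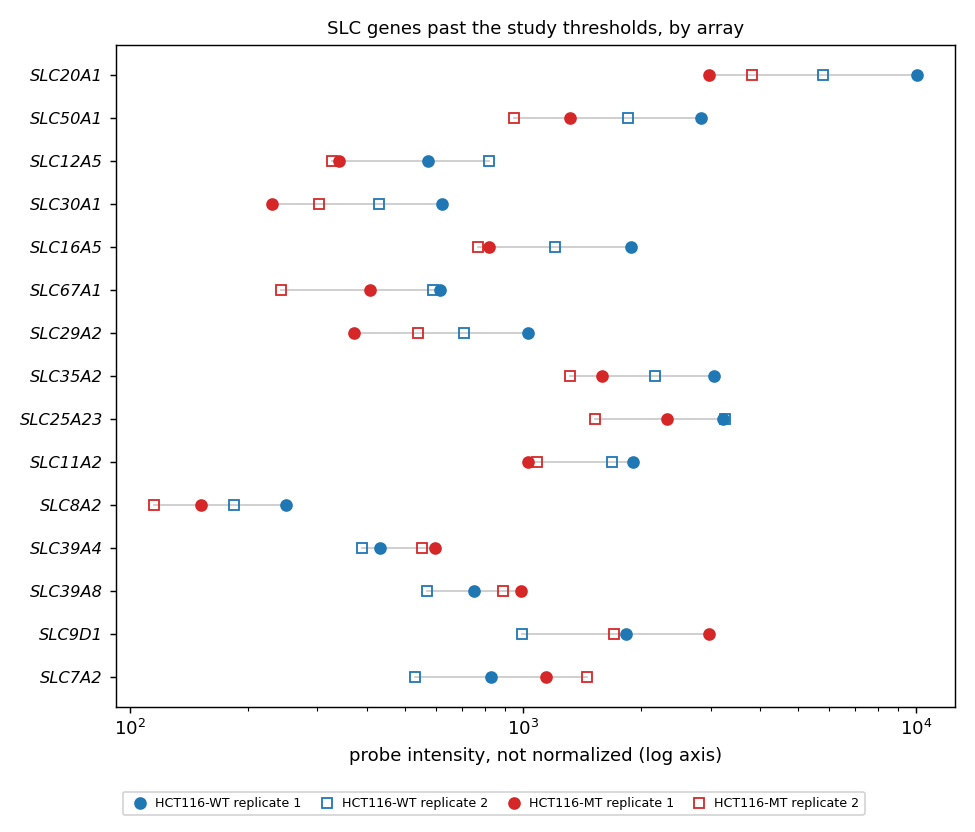
Probe intensity of the 15 SLC genes past the study thresholds on each array (log axis, not normalized), with HCT116-WT in blue and HCT116-MT in red, replicate 1 as filled circles and replicate 2 as open squares. For 14 genes the red and blue points do not overlap, and for SLC9D1 they interleave before normalisation.

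Ion carriers held the gene with the largest fall among the measured SLC genes. SLC20A1 encodes PiT1, a sodium-dependent phosphate importer, and was the brightest ion carrier. It read 10054 and 5789 in HCT116-WT against 2964 and 3828 in HCT116-MT. Both mutant arrays were below both wild-type arrays, a fall by 1.12 on the log2 scale (SE 0.28, limma adjusted p = 0.386). Its relative SLC20A2 (PiT2) gave 0.04 (SE 0.26). SLC12A5, the potassium-chloride cotransporter KCC2 known from neurons, read 574 and 817 in HCT116-WT against 341 and 327 in HCT116-MT. The lines did not overlap, and the wild-type arrays differed more from each other than the mutant arrays did (log2 difference -0.89, SE 0.32, adjusted p = 0.486). A dimmer probe of SLC12A5 gave -0.40, and with the mean of both probes the gene was no longer past the thresholds. SLC8A2, the sodium-calcium exchanger NCX2, was dim, with 250.2 and 184 in HCT116-WT against 152 and 115 in HCT116-MT, where 1 array detected it (log2 difference -0.60, SE 0.22, adjusted p = 0.487). The value of 115 lies below the lowest detected signal of its array, 135, and with neqc background correction the difference was -1.19, so its size is uncertain.

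SLC9D1, also known as TMCO3 and classed with the cation-proton antiporters, was the only ion carrier that rose. It read 1828 and 996 in HCT116-WT against 2973 and 1703 in HCT116-MT. The intensities interleaved between lines, and after normalisation both mutant arrays were above both wild-type arrays, with a log2 fold change of 0.85 (SE 0.29, adjusted p = 0.476). The gene lies on chromosome 13, and of its 10 nearest measured neighbours, 5 on each side, 9 also had a higher mean in HCT116-MT, with a median of 0.67. For the other 3 genes that rose the neighbours' medians were -0.01 (SLC7A2), 0.13 (SLC39A4) and 0.12 (SLC39A8). The part of a regional difference in the rise of SLC9D1 was not tested. Of the 26 measured ion and pH carriers 1 rose and 3 fell, and their median log2 fold change was -0.07. Besides SLC20A1, the listed ion carriers with a kept probe were SLC12A2 (the cotransporter NKCC1), SLC26A6 (an anion exchanger) and SLC4A7. They gave 0.22 (SE 0.20), -0.13 (SE 0.27) and 0.48 (SE 0.25), and none passed the thresholds. For SLC4A7 the lines did not overlap on the normalised scale, and its second kept probe gave 0.43. SLC12A2 also had a second kept probe at -0.16.

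Among metal carriers 2 importers of the ZIP family (SLC39) rose, and a zinc exporter and an iron importer fell. ZIP proteins bring zinc into the cytosol, and ZnT proteins (SLC30) remove it from the cytosol. SLC39A8 (ZIP8), which carries zinc and manganese, read 748 and 568 in HCT116-WT against 989 and 889 in HCT116-MT, and SLC39A4 (ZIP4), the intestinal zinc importer, read 433 and 389 in HCT116-WT against 596 and 555 in HCT116-MT. Both genes were higher on each mutant array than on any wild-type array, by 0.67 (SE 0.19, adjusted p = 0.406) and 0.64 (SE 0.19, adjusted p = 0.422) on the log2 scale. The second kept probe of SLC39A8 gave 1.25.

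SLC30A1 (ZnT1), the zinc exporter of the plasma membrane, read 621 and 430.0 in HCT116-WT against 229.8 and 303 in HCT116-MT. It was lower on both mutant arrays, with a log2 fold change of -0.80 (SE 0.24, adjusted p = 0.431) and of -0.55 at its second probe. SLC11A2, the proton-coupled iron importer DMT1, read 1908 and 1681 in HCT116-WT against 1030.4 and 1087 in HCT116-MT, with no overlap and little spread within either line (log2 difference -0.63, SE 0.21, adjusted p = 0.462).

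Across the zinc families, 8 of 11 measured ZIP genes averaged higher in HCT116-MT, with a family median of 0.12 on the log2 scale, and 4 of 6 ZnT genes averaged lower (median -0.16). At the thresholds 2 ZIP genes rose and none fell, and 1 ZnT gene fell and none rose. The ZIP values ran from -0.35 (SLC39A11) to 0.67 (SLC39A8), and the ZnT values from -0.80 (SLC30A1) to 0.38 (SLC30A6), so that the 2 families overlapped. Without normalisation the ZIP median turned to -0.02, and with HCT116-WT replicate 2 left out it turned to -0.10. Without HCT116-WT replicate 1 the ZnT genes split into 3 higher and 3 lower (median -0.02), and with the mean of the kept probes their median was -0.05. SLC39A3, the brightest metal carrier, had a log2 fold change of 0.35 (SE 0.24), and SLC39A6 one of 0.33 (SE 0.27). SLC30A7, a Golgi zinc transporter, stood at -0.49 (SE 0.22, limma adjusted p = 0.562) and missed the thresholds. SLC40A1, ferroportin, had no kept probe.

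**Figure D2:**
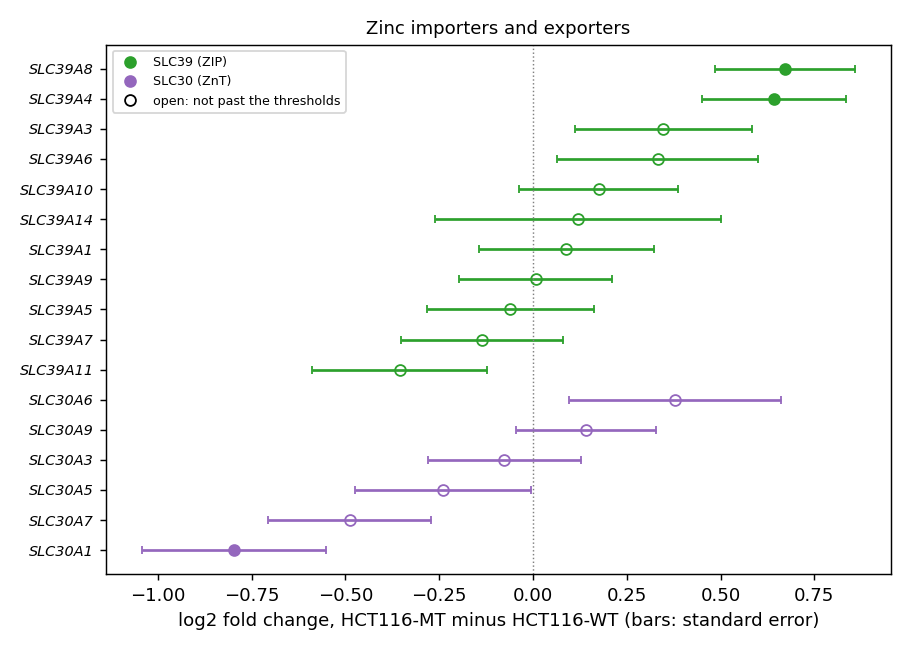
Log2 fold change (HCT116-MT minus HCT116-WT) with its standard error for the 11 measured SLC39 genes and the 6 measured SLC30 genes, each fitted over 4 arrays. Filled points passed the study thresholds, SLC39A8 and SLC39A4 on the right and SLC30A1 on the left.

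The promoter of SLC30A1 is shown because it is the zinc exporter that fell and because the mouse gene is known to be induced by zinc through metal response elements. The window is from RefSeq (GRCh38.p14), runs from 250 bases before to 50 bases after the transcription start and lies at chr1:211579112-211579411 on the minus strand. Capitals mark the letters TGCACNC or TGCGCNC, searched on both strands, and no match overlapped another in this window.
SLC30A1: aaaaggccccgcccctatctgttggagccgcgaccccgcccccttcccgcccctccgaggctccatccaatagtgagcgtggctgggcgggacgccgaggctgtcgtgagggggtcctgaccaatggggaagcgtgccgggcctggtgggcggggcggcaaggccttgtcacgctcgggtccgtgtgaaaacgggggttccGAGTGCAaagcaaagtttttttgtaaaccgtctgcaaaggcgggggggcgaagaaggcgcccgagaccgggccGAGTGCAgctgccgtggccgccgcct
Both capital stretches are reverse-strand matches to TGCACNC. A match to these letters was present in 29.6% of 35116 promoter windows and in 35.3% of the windows of measured SLC genes. It was present in 10 of 22 windows (45.5%) of the measured SLC39 and SLC30 genes and in 3 of 19 (15.8%) of the called SLC genes. For the 6 amino acid carriers described below as over 2-fold apart in HCT116-WT it was 5 of 11 windows (45.5%). Such a match is a description of sequence only. The letters CTTTG followed by 2 letters that are each A or T, to which TCF/LEF factors, the partners of β-catenin, are known to bind, were found on either strand in 13.8% of all windows and in 1 of 19 windows (5.26%) of the 11 called SLC genes that had one.

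In the amino acid and peptide class SLC7A2 was the only gene of 23 past the thresholds. It encodes CAT2, an importer of arginine, lysine and ornithine, and lies on chromosome 8. Its intensities were 828 and 532 in HCT116-WT against 1140.3 and 1457 in HCT116-MT. Both mutant arrays exceeded both wild-type arrays, by 1.10 on the log2 scale (SE 0.25, limma adjusted p = 0.328). The value stayed past the thresholds with each array left out in turn, between 0.85 and 1.35.

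Among the amino acid carriers, SLC7A5, SLC3A2, SLC38A1, SLC38A2, SLC7A1 and SLC1A5 differed more between the arrays of HCT116-WT than between the lines. SLC15A4, a peptide and histidine carrier of lysosomes, did not, with a difference of 0.14 between the wild-type replicates and a log2 fold change of 0.47 between the lines. SLC7A5 (LAT1), which exchanges large neutral amino acids, read 12432 and 2135 in HCT116-WT against 5945 and 3207 in HCT116-MT, and SLC3A2 (4F2hc), the heavy chain that LAT1 needs at the cell surface, read 9216 and 1840.4 in HCT116-WT against 4576 and 2409 in HCT116-MT. In both genes wild-type replicate 1 was the highest array and wild-type replicate 2 the lowest, with the mutant arrays between them. Their log2 fold changes between the lines were -0.21 (SE 0.70, adjusted p = 0.960) and -0.24 (SE 0.64, adjusted p = 0.946).

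SLC38A1 (SNAT1), a glutamine importer, read 2212 and 379 in HCT116-WT against 484 and 442 in HCT116-MT, a single high array among 4. With HCT116-WT replicate 2 left out, SLC38A1 was the only SLC gene with an adjusted p under 0.05 (log2 difference -1.91, adjusted p = 0.0417), and with all arrays it had -0.81 (SE 0.66, adjusted p = 0.775). SLC38A2 (SNAT2), the brightest amino acid carrier, read 11118 and 4103 in HCT116-WT against 4896 and 3710.5 in HCT116-MT (log2 difference -0.62, SE 0.38, adjusted p = 0.683). SLC7A1 (CAT1), the ubiquitous arginine importer, read 7543 and 1828 in HCT116-WT against 3849 and 1929 in HCT116-MT, and SLC1A5 (ASCT2), an exchanger of glutamine and other neutral amino acids, read 2019.5 and 592 in HCT116-WT against 1019 and 816 in HCT116-MT. For SLC7A1 and SLC1A5 the wild-type replicates again enclosed the mutant values. With HCT116-WT replicate 1 left out SLC1A5 turned to 0.59 and SLC7A5 to 0.91, both then past the thresholds.

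After normalisation these 6 carriers were over 2-fold higher on HCT116-WT replicate 1 than on replicate 2, by 4.72-fold for SLC7A5, 4.62-fold for SLC38A1, 3.96-fold for SLC3A2, 3.24-fold for SLC7A1, 2.64-fold for SLC1A5 and 2.19-fold for SLC38A2. In HCT116-MT the same carriers differed by 1.68-fold, 0.994-fold, 1.71-fold, 1.77-fold, 1.11-fold and 1.20-fold, replicate 1 over replicate 2. SLC6A9 (GLYT1), a glycine transporter placed with the neurotransmitter carriers, showed the same order, at 656 and 153 in HCT116-WT against 308 and 177 in HCT116-MT. The 6 carriers were 26.1% of the 23 in their class, and the replicates of HCT116-WT were over 2-fold apart, in either direction, for 21 SLC genes (9.42%, beside 5.50% of all genes). In HCT116-MT this held for 5 SLC genes (2.24%, beside 2.05% of all genes) and for no amino acid carrier. The class median between lines was -0.01 with all arrays, 0.22 without HCT116-WT replicate 1 and -0.17 without HCT116-WT replicate 2.

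**Figure D3:**
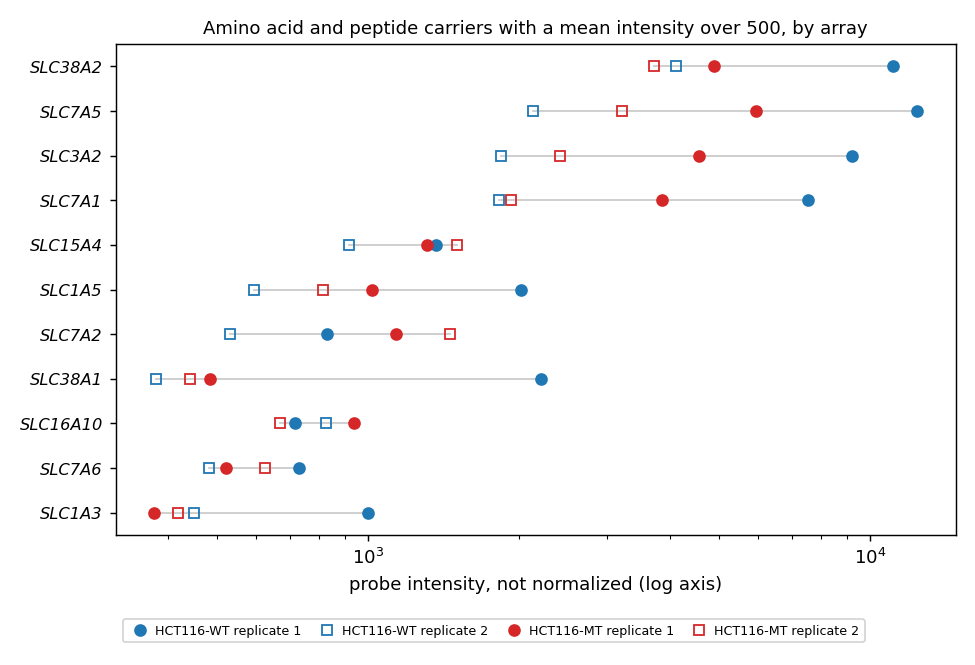
Intensity on each array (log axis, not normalized) of the 11 measured amino acid and peptide carriers with a mean intensity over 500, coloured by line and with replicate 1 as filled circles. HCT116-WT replicate 1 is the highest array for SLC7A5, SLC3A2, SLC7A1, SLC38A1, SLC38A2, SLC1A5, SLC7A6 and SLC1A3, and for SLC7A2 both mutant arrays are the highest.

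Several of these carriers are known targets of ATF4, the transcription factor of the amino acid and stress response, and other ATF4 targets were read on the same arrays. ASNS, asparagine synthetase, read 13730 and 4553 in HCT116-WT against 13959 and 2894 in HCT116-MT, and TRIB3 read 5011 and 480 in HCT116-WT against 2637 and 785 in HCT116-MT. ATF4 itself read 20682 and 8771 in HCT116-WT against 19680 and 8739 in HCT116-MT. DDIT3, read with them, was at 2900 and 1467 in HCT116-WT against 2333 and 318 in HCT116-MT. CHAC1 was at 246 and 95.3 in HCT116-WT against 247 and 94.3 in HCT116-MT. On replicate 2 CHAC1 lay below the lowest detected signal, 139 in HCT116-WT and 135 in HCT116-MT, so the size of its difference is uncertain. All of these genes were higher on replicate 1 of each line. On the normalised log2 scale ASNS differed by 1.34 in HCT116-WT and 2.12 in HCT116-MT, and ATF4 by 1.06 and 1.10. TRIB3 differed by 3.06 and 1.56. No amino acid carrier was over 2-fold apart in HCT116-MT. The part of these genes in the values of the carriers was not tested. SLC7A11, the cystine importer, had no kept probe.

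The promoters of SLC7A1 and SLC38A1 are shown because both were over 2-fold apart between the wild-type arrays and hold the letters TGATGNAA (capitals, searched on both strands, no overlap with another match), the core of an ATF4-type element. The windows are from RefSeq (GRCh38.p14), with SLC7A1 at chr13:29595639-29595938 and SLC38A1 at chr12:46266467-46266766, both on the minus strand and both from 250 bases before to 50 bases after a start.
SLC7A1: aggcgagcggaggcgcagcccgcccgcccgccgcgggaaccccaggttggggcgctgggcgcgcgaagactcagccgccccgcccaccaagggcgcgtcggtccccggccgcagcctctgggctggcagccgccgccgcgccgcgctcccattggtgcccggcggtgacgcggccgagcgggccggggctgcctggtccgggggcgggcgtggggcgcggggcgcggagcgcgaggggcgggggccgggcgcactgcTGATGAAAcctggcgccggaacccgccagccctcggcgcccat
SLC38A1: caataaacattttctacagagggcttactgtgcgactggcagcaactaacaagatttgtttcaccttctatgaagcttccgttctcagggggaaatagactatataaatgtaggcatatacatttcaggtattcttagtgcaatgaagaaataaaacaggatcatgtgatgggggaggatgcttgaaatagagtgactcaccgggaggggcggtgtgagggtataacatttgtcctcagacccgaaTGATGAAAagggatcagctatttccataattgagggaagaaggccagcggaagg
These letters were present in 3.62% of all 35116 windows. Of the 6 carriers over 2-fold apart, SLC1A5, SLC3A2, SLC38A1 and SLC7A1 had a window with a match, 4 of their 11 windows together. The 6 genes were chosen by their values, and the match is a description of sequence only.

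A second group ran the other way between replicates. SLC25A51, SLC16A12, SLC44A4 and SLC71A3P were over 2-fold higher on replicate 2 than on replicate 1 in both lines, the only SLC genes over 2-fold apart in both. SLC25A51, which imports NAD into mitochondria, read 2050.3 and 5831 in HCT116-WT against 1267 and 3229 in HCT116-MT, and SLC44A4, a thiamine pyrophosphate carrier of the colon, read 8052 and 15227 in HCT116-WT against 5316 and 10021 in HCT116-MT. SLC16A12, the brightest of the 47 genes grouped here as without a settled substrate, read 6416 and 14614 in HCT116-WT against 5197 and 9846 in HCT116-MT. The order of replicates was the same in each line for each of these genes, and none passed the test between lines (log2 fold changes -0.66, -0.50 and -0.33 for SLC25A51, SLC44A4 and SLC16A12). For SLC25A51, SLC16A12 and SLC44A4 the pattern rests on a single bright probe each. Another probe of SLC16A12 was detected on no array, at 139 and 121 in HCT116-WT against 115 and 112 in HCT116-MT. Another of SLC25A51 was detected on 1 array, at 152 and 145 in HCT116-WT against 127 and 120 in HCT116-MT. The other kept probes of SLC44A4 were dim, between 140 and 190 in intensity. Kept probes of SLC44A4 disagreed between lines, from -0.50 to 0.11.

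**Figure D4:**
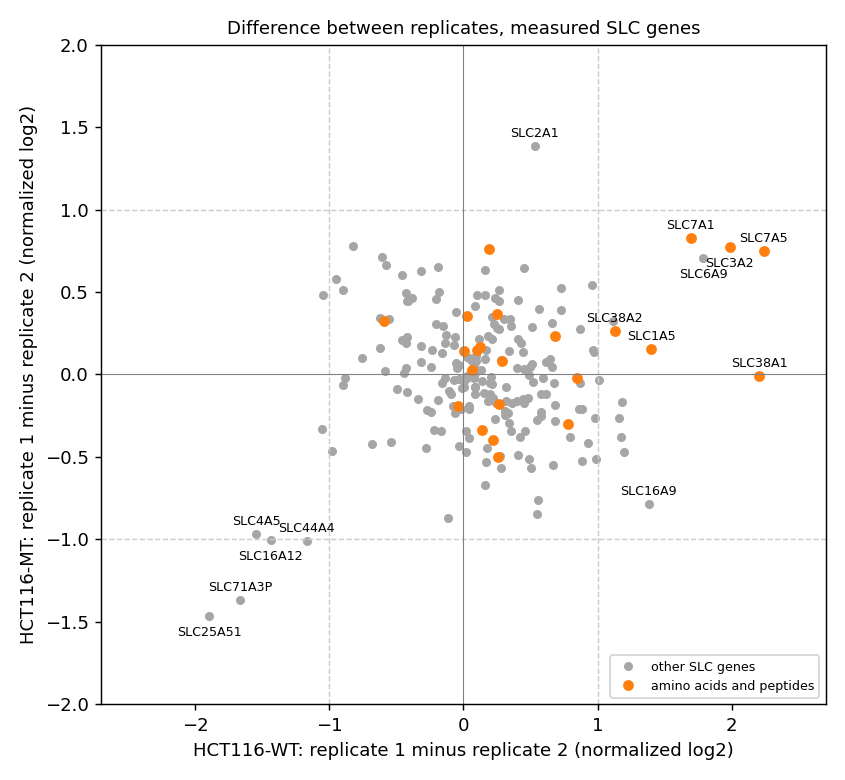
Difference between replicates (replicate 1 minus replicate 2, normalised log2) in HCT116-WT on the horizontal and in HCT116-MT on the vertical axis for the 223 SLC genes, amino acid and peptide carriers in orange, dashed lines at a 2-fold difference. SLC7A5, SLC38A1, SLC3A2, SLC7A1, SLC1A5 and SLC38A2 lie beyond 2-fold on the right, and SLC25A51, SLC71A3P, SLC16A12 and SLC44A4 at the lower left.

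Sugar carriers gave the fall that was most stable across the alternatives. SLC50A1 (SWEET1), a sugar transporter of the Golgi and plasma membrane, read 2839.6 and 1847 in HCT116-WT against 1313 and 951 in HCT116-MT. The lines were apart on every array, with a log2 fold change of -0.92 (SE 0.22, limma adjusted p = 0.376), and the second kept probe, at 739 and 714 in HCT116-WT against 392 and 340.4 in HCT116-MT, gave -0.83. SLC50A1 was the only SLC gene past the study thresholds under all 16 alternatives, between -1.07 and -0.76. It lies on chromosome 1, where 9 of its 10 nearest measured neighbours also had a lower mean in HCT116-MT (median -0.30). For other genes that fell, 9 of 10 neighbours were lower beside SLC8A2 (median -0.23), 8 of 10 beside SLC12A5 (-0.14) and 7 of 10 beside SLC25A23 (-0.16). It was 6 of 10 beside SLC35A2 (-0.25) and SLC11A2 (-0.12). The neighbours' median was positive beside SLC20A1 (0.12), SLC29A2 (0.06), SLC67A1 (0.06), SLC16A5 (0.03) and SLC30A1 (0.02). A regional part was not tested for any of these genes.

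SLC2A1 (GLUT1), the main glucose importer of tumour cells, read 1841 and 949 in HCT116-WT against 4372 and 1490.2 in HCT116-MT. The intensities interleaved, the normalised values did not, and the mutant replicates were 2.62-fold apart. Its log2 fold change of 1.06 (SE 0.46) exceeded those of 3 of the 4 genes that rose but missed the p threshold (limma adjusted p = 0.559). SLC2A3 (GLUT3) gave 0.44 (SE 0.25), and SLC37A4, the glucose-6-phosphate carrier of the endoplasmic reticulum and the brightest sugar carrier, gave 0.16 (SE 0.19). SLC5A1, the sodium-glucose cotransporter of the small intestine, had no kept probe. The median of the 13 measured sugar and polyol carriers was -0.02.

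Mitochondrial carriers included the brightest carrier with a known substrate, SLC25A5, and 1 of the 36 measured fell. SLC25A23, a calcium-regulated exchanger of ATP-magnesium and phosphate, read 3221 and 3270.1 in HCT116-WT against 2325 and 1526 in HCT116-MT. The lines did not overlap, and the mutant arrays differed more from each other than the wild-type arrays in intensity (log2 difference -0.69, SE 0.26, adjusted p = 0.494). SLC25A23 was no longer past the thresholds with neqc background correction or with the replicate number as a block. SLC25A5 (ANT2), the ADP/ATP exchanger, read 19981 and 18508 in HCT116-WT against 24197 and 22121 in HCT116-MT, a narrow spread in each line with a log2 fold change of 0.31 (SE 0.19, adjusted p = 0.673). SLC25A3, the mitochondrial phosphate carrier, read 11415 and 8979 in HCT116-WT against 14675 and 13073 in HCT116-MT, with no overlap. Its log2 fold change of 0.51 (SE 0.19, limma adjusted p = 0.493) was under the fold threshold. SLC25A1, the citrate carrier, gave -0.12 (SE 0.23). The class had a median of 0.06 (-0.05 without normalisation), with 22 means higher and 14 lower in HCT116-MT.

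Among the carriers of nucleosides and nucleotide sugars a single gene fell in each class. SLC35A2 brings UDP-galactose into the Golgi and read 3050.4 and 2167 in HCT116-WT against 1586 and 1318 in HCT116-MT. The replicates lay close together after normalisation (SD 0.07 and 0.08), and the log2 fold change was -0.73 (SE 0.19, limma adjusted p = 0.386). Dimmer probes of SLC35A2 gave -0.25 and -0.08, and with the mean of the kept probes the gene had -0.35 and was no longer called. SLC29A2 (ENT2), an equilibrative nucleoside transporter, read 1027 and 709 in HCT116-WT against 372 and 540.0 in HCT116-MT, without overlap (log2 difference -0.76, SE 0.27, adjusted p = 0.484). SLC29A1 (ENT1) had no kept probe, and SLC35A1, the CMP-sialic acid carrier, gave -0.14 (SE 0.19).

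In the class without a settled substrate 2 of 47 genes fell. SLC16A5 (MCT6), a relative of the monocarboxylate carriers, read 1878 and 1208 in HCT116-WT against 818 and 766 in HCT116-MT. All mutant values were below all wild-type values (log2 difference -0.78, SE 0.20, limma adjusted p = 0.386), and a dimmer probe gave -0.24. With the mean of the kept probes SLC16A5 had -0.51 and was no longer past the thresholds. SLC67A1, listed earlier as SLC22A18 and known as an imprinted gene of chromosome 11, read 614 and 589 in HCT116-WT against 408 and 242 in HCT116-MT (log2 difference -0.78, SE 0.27, adjusted p = 0.482). The lines did not overlap for SLC67A1 either, and its 10 neighbours had a median of 0.06.

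No gene passed the thresholds among 11 carriers of vitamins, choline and cofactors, 5 of lipids and bile acids, 5 of neurotransmitters and osmolytes, 3 of carboxylates, 3 of organic ions and drugs, and 12 SLC-named genes that are not carriers themselves. All measured members of the SLC44 family, which holds choline carriers (SLC44A1 and SLC44A2), the thiamine pyrophosphate carrier SLC44A4 and a member without a settled substrate (SLC44A3), averaged lower in the mutant line (4 genes, median -0.45 on the log2 scale, -0.25 with the mean of the kept probes), and 3 of the 4 did with any array left out. SLC44A2 read 2980.5 and 1168 in HCT116-WT against 1231 and 757 in HCT116-MT, which overlap between the lines in intensity but not after normalisation, with a log2 fold change of -0.83 (SE 0.37, limma adjusted p = 0.562). SLC44A1 gave -0.41 (SE 0.26). SLC5A6, a vitamin carrier, gave 0.05 (SE 0.37), and SLC19A1, the reduced folate carrier, 0.38 (SE 0.26). The remaining brightest genes of their classes lay between -0.26 and 0.22, namely SLC27A3, SLC16A7, SLC6A9, SLC29A4, SLC35B2, SLC22A5 and SLC7A5P2. SLC7A5P2 is a pseudogene related to SLC7A5, and which transcript its probe reads is uncertain.

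**Figure D5:**
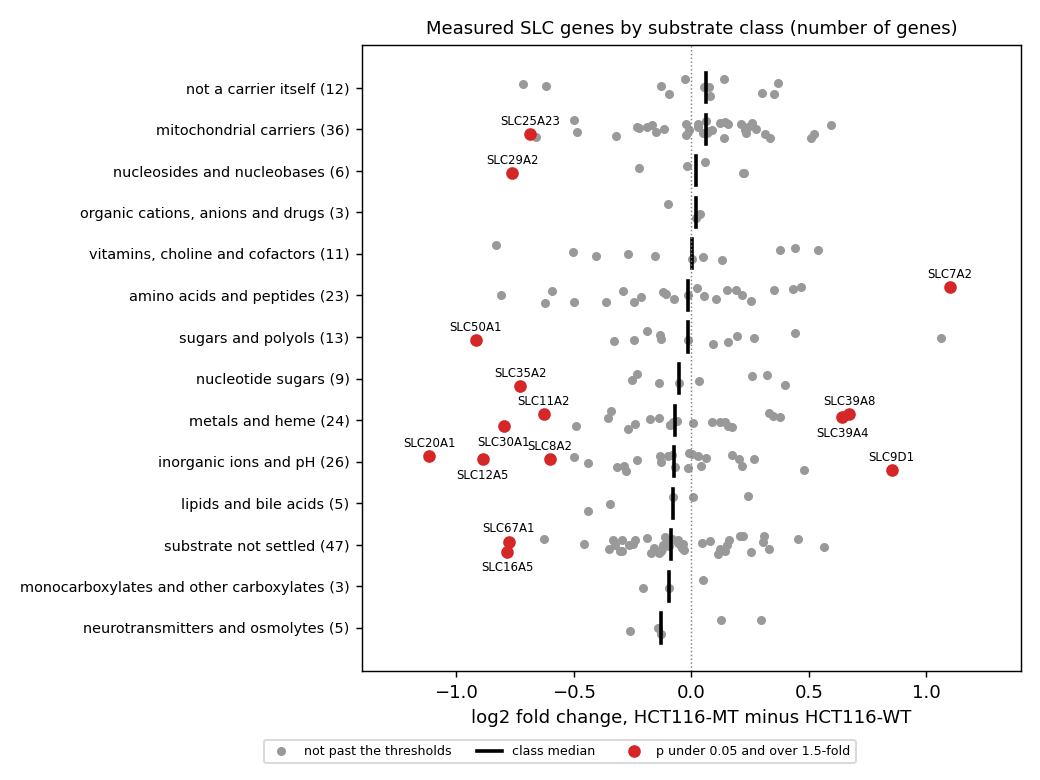
Log2 fold change (HCT116-MT minus HCT116-WT) of the 223 measured SLC genes by substrate class, with the number of genes in brackets, class medians as bars and the 15 genes past the study thresholds in red. Class medians lie between -0.13 and 0.06.

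A further 7 SLC genes were detected on both arrays of a single line and on no array of the other. The share of all genes detected in this way was not counted, so the number is a description of these genes only. SLC25A35, SLC25A45, SLC38A8, SLC7A9 and SLC9A9 were detected in HCT116-WT only, and SLC25A18 and SLC6A7 in HCT116-MT only. For such genes the fold change is a bound, the mean of the detected line against the lowest detected signal of the other line's arrays or the probe's own value where higher. SLC25A35, an orphan mitochondrial carrier, had a level in HCT116-MT at least 1.33-fold lower, and SLC7A9, the cystine and dibasic amino acid exchanger of kidney and gut, at least 1.26-fold lower (adjusted p = 0.598 and 0.494). The other bounds were 1.06-fold to 1.14-fold. All 7 were dim, between 100.7 and 219.6 in intensity, and none passed the thresholds. Each passed the detection filter only through the line where it was higher. Its direction thus follows from the filter and is no result of the test.

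Around the thresholds the order of SLC genes was close. The genes just inside were SLC8A2 at -0.60 (limma adjusted p = 0.487) and SLC25A23 at -0.69 (0.494), and those just outside were SLC25A3 at 0.51 (0.493), SLC7A9 at -0.50 (0.494) and SLC25A22, the mitochondrial glutamate carrier, at -0.50 (0.524), which missed the fold threshold, and SLC66A3 at -0.63 (0.542), which missed the p threshold. Of these, SLC7A9 was kept through HCT116-WT alone, so its direction follows from the filter. From a list of 32 carriers of interest in colorectal epithelium and tumours, 22 had a kept probe. SLC20A1, SLC30A1, SLC39A4 and SLC11A2 were past the thresholds. Over all genes 7.31% were past them, and the list was chosen with earlier results of these data known. SLC15A1 and SLC26A3 had no kept probe.

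Other transport genes, the ABC transporters, ATP-driven pumps, aquaporins and carriers outside the SLC names, were read for comparison. Of 94 listed genes 54 were measured, and 2 rose and 5 fell at those thresholds, where 3.46% of all genes rose and 3.85% fell. The median log2 fold change was -0.14, beside -0.03 for SLC genes. ABCC4, an exporter of organic anions, and FLVCR1, a choline and heme transporter, were higher by 1.04 and 0.62, and ABCC3, ATP2B4, ABCA3, ATP2C2 and MPC1, the mitochondrial pyruvate carrier subunit, were lower, at -1.12, -0.90, -0.83, -0.77 and -0.61. The difference between the lists was not tested.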

How the data were processed

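Gene expression was measured on Illumina HumanHT-12 v4 BeadChips in 2 HCT116-WT and 2 HCT116-MT samples. The authors extracted the arrays with GenomeStudio v2011.1 and deposited, per probe and array, an intensity not normalized between arrays, and a detection p-value deposited beside it. The second value table of the series was not used here, because its probe IDs do not match these intensities. Log2 intensities were quantile-normalized with limma 3.58.1 in R 4.3.3, and 20579 of 47321 probes passed the detection filter (p-value under 0.05, 2 or more arrays). The brightest kept probe stood for each of 11875 genes. HCT116-MT was compared with HCT116-WT by a linear model with moderated variances (lmFit and eBayes, two-sided) on all genes, with Benjamini-Hochberg adjustment over all of them. The steps were tested on simulated data. Intensities printed are those deposited, and fold changes, SE and SD are on the normalised log2 scale. The number of arrays limits the precision.

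Probe symbols came from a platform table, and the gene table and RefSeq promoter windows follow GRCh38.p14. All 223 genes matched the gene table by symbol, and 189 had a promoter window. Named genes were those past the study thresholds, listed carriers with a kept probe, the brightest of each class and genes detected in 1 line only. Others, among them those over 2-fold apart between replicates and the ATF4 targets, were named after their values were seen. The members, classes and lists were chosen with earlier results of these data known, and the classes of a few recent symbols were set after values were seen. Alternatives were neqc (offset 16), median scaling, cyclic loess, no normalization, other detection filters, the replicate block, Student's t-test, a variance trend, the mean of probes and each array left out. Plots were made in Python 3.11.15 with matplotlib 3.10.9.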

Additional observations from a re-analysis of the deposited data

How the results depend on the processing

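All 15 called SLC genes kept their direction under all alternatives in which they were measured (SLC8A2 was not, with detection on all 4 arrays required), and SLC50A1 and SLC7A2 stayed past the study thresholds with each array left out. Against 4 SLC genes higher and 11 lower, median scaling gave 2 higher, no normalization 1 higher, and Student's t-test 2 higher and 3 lower. With Student's t-test 2.24% of SLC genes were past the thresholds, beside 2.75% of all genes. No normalization moved the median of all genes to -0.12 and that of SLC genes to -0.17, where the rises of SLC39A4, SLC39A8 and SLC9D1 were lost, and median scaling lost those of SLC39A4 and SLC9D1. Over all genes 411 were higher and 457 lower, and the split was 303 and 485 with median scaling, 322 and 537 with cyclic loess and 130 and 605 without normalisation. With 1 array left out, 2 to 20 SLC genes were higher and 5 to 21 lower, and 6 to 11 of the 15 main calls were kept. Without HCT116-WT replicate 1 the counts were 20 and 21, without HCT116-WT replicate 2 they were 5 and 18, without HCT116-MT replicate 1 they were 2 and 5, and without HCT116-MT replicate 2 they were 4 and 5. The count at adjusted p under 0.05 in limma was 0 to 1 in these fits. Calls over all genes changed in the same way, with more when an HCT116-WT array was left out and fewer when an HCT116-MT array was. The share of SLC genes called was above that of all genes without HCT116-WT replicate 1 and without HCT116-MT replicate 2. It was below that of all genes in the other fits of this kind, and the difference was not tested. With 1 array left out the log2 fold change of SLC1A5 ran from -0.81 to 0.59 and the log2 fold change of SLC7A5 from -1.33 to 0.91. The median of SLC genes ran from -0.10 to 0.08 with 1 array left out, beside -0.003 to 0.01 for all genes. Naming probes by the platform symbol alone gave the same members. With the replicate block, 5 SLC genes were higher and 13 lower (8.07%, beside 7.73% of all genes). The block kept 14 of the 15 calls, all but SLC25A23. Deviations of same-numbered arrays correlated at 0.05 over the kept probes. The labels also name nothing that a number marks, and the arrays were not treated as pairs. However, the 4 SLC genes over 2-fold apart between replicates in both lines had the same order in each. Outside the SLC genes, ATF4, ASNS and TRIB3 were over 2-fold higher on replicate 1 in both lines. CHAC1 was too, but its replicate 2 values lay below the lowest detected signal. DDIT3 was over 2-fold higher on replicate 1 in HCT116-MT only, with a log2 difference of 0.59 in HCT116-WT. With the mean of the kept probes 4 SLC genes were higher and 9 lower (5.83%, beside 6.86% of all genes). Here 12 of the 15 calls were kept, without SLC12A5, SLC16A5 and SLC35A2.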
